A study of Homo sapiens with 16 samples.

Results

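Genes that responded to MKC8866, an inhibitor of the RNase activity of IRE1α, were examined in LNCaP cells by RNA-seq. The comparison takes 8 of the 16 libraries of the series, chosen by their treatment labels: 4 MKC8866 libraries and 4 Vehicle libraries, each numbered 1 to 4, with the replicate number entered as a block so that every treated library is set against the vehicle library of the same number. LNCaP is a human prostate cancer cell line, here at passage 20. Vehicle cells received DMSO and MKC8866 cells received 10 µM MKC8866 for 24 h. Both groups were then given 30 nM thapsigargin (TG), a blocker of the calcium pump of the ER, for 3 h. The controls were therefore stressed as well, and the comparison holds no unstressed cells. The labels do not say whether the libraries of a group came from separate cultures, so the p-values measure only the spread between these samples, which may be technical. Nor do they say what libraries with the same number have in common. For this reason each main count is given with and without the block. The other 8 libraries come from an XBP1 knockdown experiment with its own control siRNA in the same stressed cells, and are used only where the responses are compared.

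IRE1α, encoded by ERN1, is a sensor in the ER membrane that oligomerizes when unfolded proteins accumulate. Its cytosolic RNase cuts a short intron out of XBP1 mRNA. The spliced message encodes XBP1s, a transcription factor that switches on genes for protein import into the ER, folding, degradation and vesicle traffic. The same RNase also cuts some other mRNAs, which are then degraded, a process known as IRE1-dependent decay. PERK and ATF6 are the sensors of the other arms of the unfolded protein response (UPR).

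The stretch removed from XBP1 mRNA is shown because it is the substrate of the enzyme that MKC8866 blocks. In the GENCODE annotation of GRCh38 it spans 26 bases on the minus strand of chr22:28796128-28796153, within the coding sequence. It is printed 5′ to 3′ with the annotated intron in capitals and a pair of flanking bases on each side. The bases GC at the start of the intron recur in the flank after it, while its end does not match the flank before it. The sequence alone does not fix which bases are removed, so the exact placement is that of the annotation.
XBP1: ccGCAGCACTCAGACTACGTGCACCTCTgc
The deposited values are counts per gene and do not separate the spliced from the unspliced form.

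Between 28923919 and 34507788 fragments were counted per library in these 8 libraries, with a median of 29812377.5. Of 58051 genes in the table, 21045 had over 5 counts in a library of both groups and were tested. Correlations of log2 CPM, the counts scaled to the size of each library, lay between 0.9958 and 0.9970 within groups and between 0.9935 and 0.9958 across them. The luminal prostate markers fixed for the line were all well detected, with KLK2, the lowest, at 144 to 173 CPM and FOLH1, the highest, at 1175 to 1318 CPM (here per library total, without further scaling). Summed over 9 markers they came to 3856 to 4036 CPM in Vehicle and 4275 to 4434 CPM in MKC8866 libraries. Of 19 markers of other cell types, PTPRC and HBB were at 0 in all 8 libraries, and CD3E, MS4A1, PECAM1, CDH5 and DCN had at most 2 counts in any library. ACTA2 at 67.3 to 83.6 CPM and COL1A1 at 24.7 to 36.4 CPM made up most of their sum, which was 112 to 126 CPM in Vehicle and 112 to 132 CPM in MKC8866 libraries. In bulk RNA, fewer cells of a kind and less RNA per cell cannot be told apart.

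Neither the transcript of the enzyme nor that of its substrate fell. ERN1 was at 170.6, 159.7, 168.6 and 170.3 CPM in Vehicle and at 188, 189, 210.3 and 207 CPM in MKC8866 libraries 1 to 4. It rose by 18.6% (log2 fold change 0.25 ± 0.03, standard error, adjusted p = 7.47e-10), with no overlap between groups. XBP1, counted over both forms, was at 490.4, 541, 483 and 504 CPM in Vehicle and at 586, 621, 578 and 539 CPM in MKC8866. It rose by 15.05% (log2 fold change 0.20 ± 0.02, adjusted p = 4.94e-09), although the lowest treated library lay just below the highest vehicle library.

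With the block, 1484 genes were lower and 1262 were higher with MKC8866 at an adjusted p under 0.05, which is 7.05% and 6.0% of the genes tested. Without the block, 654 (3.11%) were lower and 287 (1.36%) were higher, and every one of them was also called with the block in the same direction. Among the 10517 protein-coding genes with a mean of at least 5 CPM, the shares called with the block were 11.5% lower and 11.1% higher. Over all genes called, the falls were larger than the rises. Of the genes called lower, 523 fell by more than 1.2-fold, 169 by more than 1.5-fold and 64 by more than 2-fold. Of the genes called higher, 182 rose by more than 1.2-fold, 22 by more than 1.5-fold and 3 by more than 2-fold. The median size of a call was 0.19 on the log2 scale for lower and 0.15 for higher genes. The 830 lower genes called only with the block had a median size of 0.14, against 0.33 for those called either way. For higher genes these values were 0.13 over 975 genes and 0.24. The 4 treated and 4 vehicle libraries did not overlap for 866 of the 1484 lower and 557 of the 1262 higher genes, beside 9.33% of all genes tested. Among the genes that fell more than 2-fold, 28 were protein-coding and 24 were long noncoding RNAs, and 34 of the 64 had a mean under 1 CPM.

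**Figure D1:**
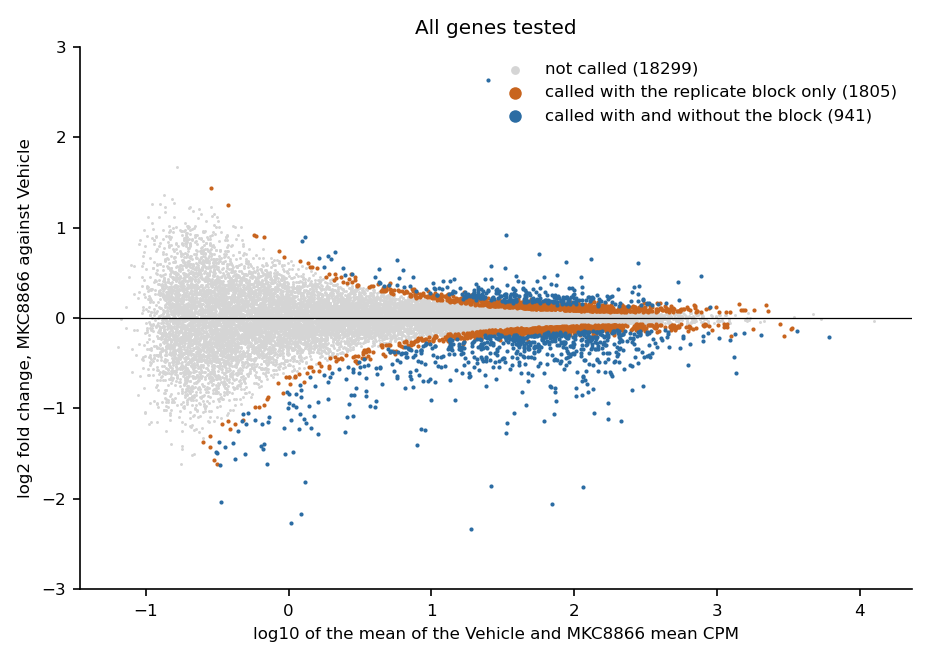
Log2 fold change of each of the 21045 tested genes, MKC8866 against Vehicle with the replicate block (y axis), against the log10 of the mean of the Vehicle and MKC8866 mean CPM (x axis). Blue points (941) were called with and without the block, orange points (1805) only with it and lie closest to 0, and the falls reach further than the rises except for DGAT2 at 2.63.

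The 12 largest falls among genes with a mean of at least 5 CPM, the same sign in 4 of 4 pairs and an adjusted p under 0.05 were led by a transcription factor and by regulators of BiP. BHLHA15 (MIST1), a basic helix-loop-helix factor of secretory cells at chr7:98211427-98212979, was at 33.6, 30.1, 30.3 and 32.2 CPM in Vehicle and at 6.25, 5.16, 6.94 and 6.71 CPM in MKC8866. It fell by 80.1% (log2 fold change -2.33 ± 0.06, adjusted p = 2.27e-31). FICD, the enzyme that attaches AMP to BiP and removes it, was between 111 and 113 CPM in the 4 Vehicle libraries and at 26.2, 24.9, 28.4 and 28.1 CPM in MKC8866, a fall of 76.0% (adjusted p = 1.01e-38). DNAJB9 (ERdj4), a J-protein that recruits BiP, went from 175, 187, 172 and 190.4 CPM to 43.6, 51.7, 47.7 and 55.5 CPM, a fall of 72.6%. In each of these genes every treated library lay far below the lowest vehicle library.

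MIR22HG, the long noncoding host transcript of miR-22, was between 40.6 and 42.2 CPM in Vehicle and at 10.5, 12.2, 12.1 and 10.7 CPM in MKC8866 (log2 fold change -1.86, adjusted p = 8.81e-31). FKBP11, a prolyl isomerase of the ER, fell by 58.5%, from 47.0, 45.8, 49.0 and 47.5 CPM to 20.9, 19.4, 20.5 and 18.1 CPM. SYVN1 (HRD1), the ubiquitin ligase at the centre of ER-associated degradation, fell by 54.8%, from 310.2, 275, 301 and 294 CPM to 138, 123, 142 and 130.4 CPM. TMEM39A, which regulates ER export, fell by 54.8% too, and TSPYL2, a nuclear protein of the nucleosome assembly family, by 54.0%. BTN3A1, a butyrophilin sensed by gamma-delta T cells, fell by 57.7% from 12.7 to 5.35 CPM. The remaining members of the 12 were C14orf28 (log2 fold change -1.40), CCDC163 (-1.22) and the pseudogene MSTO2P (-1.16), whose functions are less well defined. In the annotation FICD overlaps SART3, DNAJB9 overlaps PNPLA8 and THAP5, FKBP11 overlaps CCDC65, CCDC163 overlaps MMACHC, MSTO2P overlaps GON4L and SYVN1 overlaps FAU and MRPL49. Fragments in a shared stretch were not assigned to either gene.

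**Figure D2:**
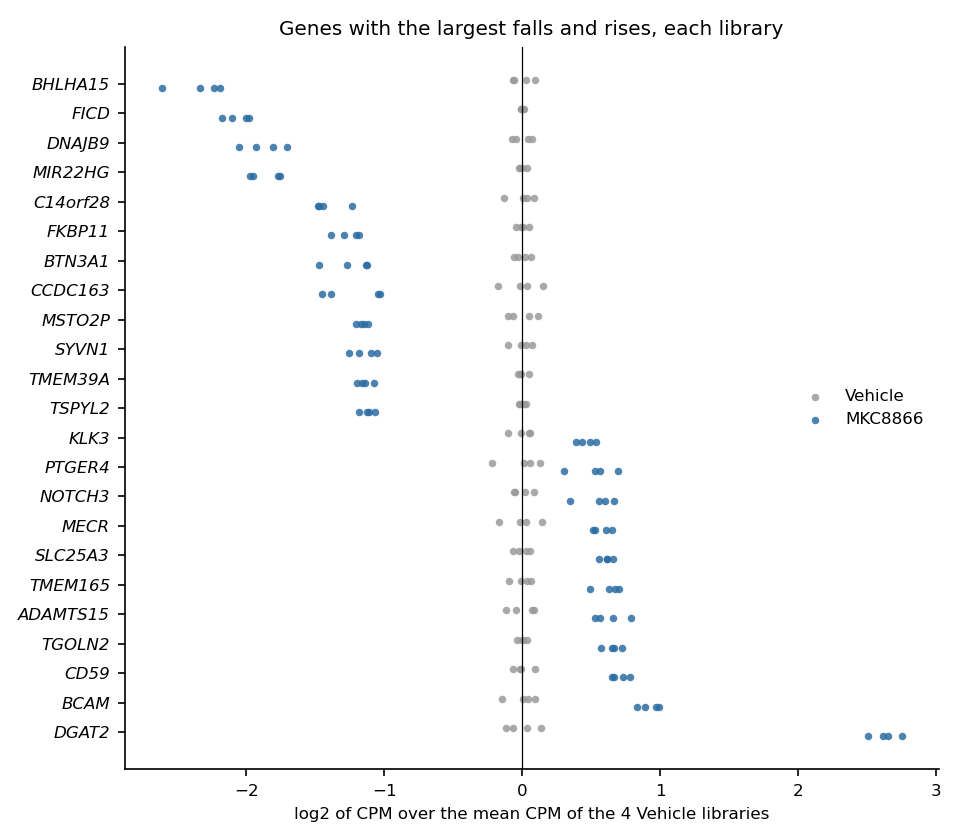
Log2 of the CPM of each library over the mean CPM of the 4 Vehicle libraries (x axis) for the 12 genes with the largest falls and 11 of the 12 with the largest rises (y axis). Grey points are Vehicle and blue points MKC8866 libraries, and the groups do not overlap for any of the 23 genes, which were chosen by this same comparison.

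Promoters of the leading genes were searched for the elements named for ATF6 and XBP1, because these sit in front of many UPR genes. The window ran from 250 bases before to 50 after the RefSeq start (GRCh38.p14), and both strands were read. The motifs were ERSE, which is CCAAT and CCACG with 9 bases of any kind between them, the UPRE, TGACGTGG, the shorter GCCACGT, and the core ACGTGG, which is contained in both UPRE and GCCACGT. Of 27305 promoters in the table, 0.0806% held ERSE, 0.795% held the UPRE, 3.30% held GCCACGT and 9.91% held the core. Windows around a match, read on the strand of the gene, are shown for XBP1 and for genes that fell. Capitals mark the match, which reads in reverse for SERP1, DNAJB9, FKBP11 and SYVN1, and the position counts bases before the start.
XBP1, ERSE, chr22:28800598-28800626, 52 to 34 before the start: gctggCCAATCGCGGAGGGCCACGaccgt
HSPA5, ERSE, chr9:125241386-125241414, 66 to 48 before the start: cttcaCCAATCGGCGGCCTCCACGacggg
FICD, ERSE, chr12:108515118-108515146, 154 to 136 before the start: aacaaCCAATGGGAGTGGCCCACGgcgcg
SERP1, ERSE, chr3:150546705-150546733, 232 to 214 before the start: tcatgCGTGGAGACAGCGAATTGGtgttt
DNAJB9, core, chr7:108569788-108569817, 74 to 69 before the start: aacaacagttttCCACGTgcgcgtagggcg
FKBP11, core, chr12:48925672-48925701, 197 to 192 before the start: gtttggcccgacCCACGTtataggacagaa
SYVN1, core, chr11:65134622-65134651, 120 to 115 before the start: attgctatgggcCCACGTagggcgcagtgc
MIR22HG, GCCACGT, chr17:1716307-1716335, 114 to 108 before the start: gggtgggcgggGCCACGTtgcccagcagt
TMEM39A, GCCACGT, chr3:119463616-119463638, 12 to 6 before the start: cgccgtgcgctGCCACGTctgct

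Matches of these letters were more frequent in front of genes that fell. The core was found in 249 of 1084 promoters of genes called lower (22.97%), in 101 of 964 of genes called higher (10.5%) and in 1552 of 12658 of all tested genes with a promoter in the table (12.3%). GCCACGT was found in 11.2%, 3.42% and 4.24% of the same sets, and the UPRE in 3.78%, 0.415% and 0.916%. Among the 89 promoters of genes lower by more than 1.5-fold, the core was found in 30 (33.7%) and the UPRE in 1 (1.12%). Among members of the secretory lists described next, the core stood in 68 of 161 promoters of genes called lower (42.2%) and in 26 of 142 of genes not called lower (18.3%). ERSE was rare, with 8 matches among genes called lower and 17 among all tested genes. None of these motifs was found in the windows of ERN1, EDEM1, BHLHA15, CCDC163 or TSPYL2, nor in those of the 9 risen genes among the 12 that have a promoter in the table. These shares are descriptions and were not tested.

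Falls were found along the secretory pathway from the ribosome to the Golgi, although most genes called lower lay outside it. Lists of 20 steps of this pathway, written from textbook membership with earlier results of these data known, hold 357 tested genes. The choice of lists was therefore not independent of these data, and their shares are descriptions. Of the 357 genes, 183 (51.3%) were called lower and 6 (1.68%) higher with the block. These shares were 7.05% and 6.0% over all genes, and 11.5% and 11.1% over protein-coding genes with a mean of at least 5 CPM. Without the block, 142 (39.8%) of the 357 were lower and 3 higher, against 3.11% and 1.36% of all genes. Their median log2 fold change was -0.11, against 0.003 over all genes. The groups did not overlap for 154 of the 183, beside 866 of all 1484 genes called lower and 9.33% of all genes tested. Of the 1484 lower genes, 1301 lay outside these lists. The lists held 31 of the 169 genes lower by more than 1.5-fold and 7 of the 64 lower by more than 2-fold. The medians of the lists ran from -0.75 to near 0.

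Import into the ER was lower at each of its steps. All 5 genes of the TRAP complex with SERP1, which assist the translocon, fell with and without the block, with a median of -0.75. SSR2 was between 227 and 229 CPM in Vehicle and at 114, 120.4, 127 and 116 CPM in MKC8866 (log2 fold change -0.94 ± 0.03, adjusted p = 3.08e-30). SERP1 (RAMP4) went from 371, 399.9, 376 and 370.2 CPM to 229.8, 229.96, 238 and 203 CPM, a fall of 40.7%. In the SRP and its receptor, which bring ribosomes to the ER, 6 of 8 genes fell with a median of -0.30. SRPRA, the receptor subunit, was at 279.7 to 301 CPM in Vehicle and 199.7 to 208 CPM in MKC8866, while SRP9 (-0.04) and SRP14 (0.03) were not called. In the translocon itself, SEC61A1 (-0.52), SEC61B (-0.41), SEC61G (-0.52) and SEC63 (-0.35) fell, and SEC62 (-0.07) and SEC61A2 (0.03) were not called. All 6 genes of signal peptidase and signal peptide peptidase fell with the block, led by HM13 (-0.35) and SPCS3 (-0.38), and 4 of them without it.

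N-glycosylation was lower mainly at the transferase. In the oligosaccharyltransferase, which hands the glycan to the protein, 11 of 12 genes fell with the block and 9 without it, with a median of -0.29. OSTC, one of its subunits, fell from 71.6, 77.5, 76.0 and 73.2 CPM to 45.7, 52.4, 48.9 and 48.6 CPM, and only TUSC3 (-0.03) was not called. Of 24 genes for assembly of the lipid-linked glycan, 7 fell and 17 were not called, with a median of -0.06. ALG2, a mannosyltransferase of this route, had the strongest evidence in the list and went from a range of 84.98 to 86.7 CPM in Vehicle to 49.5 to 51.9 CPM in MKC8866 (log2 fold change -0.76 ± 0.03, adjusted p = 2.24e-23). Supply of the sugars was lower as well. In hexosamine and nucleotide sugar synthesis 12 of 23 genes fell and 9 did so without the block, among them GMPPA (-0.96), PGM3 (-0.78), GMPPB (-0.58) and GFPT1 (-0.57), the enzyme of the committed step of the hexosamine route. Of 21 transporters of nucleotide sugars and metal ions in these membranes, 8 fell, led by the acetyl-CoA transporter SLC33A1 (-0.85), and TMEM165 rose (0.62).

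Folding factors fell selectively. In the list of BiP with its J-proteins and exchange factors, 11 of 15 genes fell with and without the block, with a median of -0.37. DNAJC3 (P58IPK) was at 206, 228, 223 and 236 CPM in Vehicle and at 147, 163, 161 and 165 CPM in MKC8866, a fall of 28.6% (adjusted p = 8.82e-21). HSPA5, which encodes BiP and was the most abundant of them, changed little in size. It was at 3793, 3836, 3851 and 3770.3 CPM in Vehicle and at 3384, 3478, 3563 and 3342 CPM in MKC8866, a fall of 9.7% (adjusted p = 3.74e-08), with no overlap between groups. HYOU1, the exchange factor GRP170, fell by 0.43 on the log2 scale, CRELD2 by 0.60 and SDF2L1 by 0.49, whereas HSP90B1 (0.01) and SIL1 (0.07) were not called. Among the disulfide isomerases and oxidases, 14 of 21 fell with the block and 11 without it, with a median of -0.17. P4HB (-0.25), PDIA4 (-0.22) and PDIA3 (-0.20) changed by small amounts at high levels, and the membrane isomerase TXNDC11 by more (-0.42). In the glycoprotein folding cycle the trimming enzyme MOGS fell (-0.52) both ways. The chaperone CANX (-0.07) and GANAB (-0.09) were called lower only with the block and CALR (-0.04) was not called. PRKCSH was called higher (0.13), also only with the block. In this list 5 of 8 genes were lower with the block and 1 without it, and 3 with both libraries numbered 3 left out. Of 8 prolyl isomerases, FKBP11, FKBP14 (-0.82), PPIB (-0.43) and FKBP2 (-0.31) fell.

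ER-associated degradation carries misfolded proteins to the proteasome, and 18 of its 35 genes fell, 15 of them without the block, while RNF103 (0.14) was higher with the block. EDEM1, which trims mannose from proteins to be degraded, was at 128, 146, 137 and 148 CPM in Vehicle and at 80.8, 96.0, 90.3 and 90.3 CPM in MKC8866, a fall of 36.2% (adjusted p = 4.89e-23). HERPUD1, a scaffold of the SYVN1 complex, fell by 0.61 from a mean of 1630.2 CPM, and DERL3 (-0.70), SELENOS (-0.63) and SEL1L (-0.33) fell with it. Among genes of other ligases, RNF139 (-0.03), RNF185 (-0.03) and MARCHF6 (-0.07) were not called.

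Transport out of the ER and back was lower at the coats. In the COPII coat and its regulators, which form vesicles leaving the ER, 14 of 19 genes fell and 10 did so without the block. SEC24D, a cargo-binding coat subunit, was between 180.5 and 189.9 CPM in Vehicle and between 88.7 and 92.1 CPM in MKC8866 (log2 fold change -1.05 ± 0.03, adjusted p = 4.27e-32), while its paralogues SEC24A and SEC24C fell by 0.26 each and SEC24B (0.07) was not called. PREB (SEC12), the exchange factor that starts coat assembly, fell by 0.73. In the COPI coatomer, which returns vesicles to the ER, 7 of 8 genes fell either way with a narrow range, from -0.38 for ARCN1 to -0.15 for COPZ1, and COPG2 (0.04) was not called. Among cargo and KDEL receptors 13 of 24 fell, led by TMED7 (-0.59), LMAN1 (-0.49) and its partner MCFD2 (-0.47), and ERGIC1 (0.13) and TMED8 (0.18) rose. Of 42 tethers and SNAREs, 20 fell with the block and 13 without it, with ARF4 (-0.43), BET1 (-0.75) and RAB1A (-0.37) among the best supported, and of 30 Golgi structural genes 13 fell with the block and 8 without it, led by GOLPH3L (-0.81) and GORASP2 (-0.70). Genes of the same membranes were not all lower. In GPI anchor synthesis 1 of 25 genes fell, PIGM (-0.21), and 1 rose, PIGQ (0.46), with a median of -0.004. In the ER membrane protein complex and the tail-anchor route, 4 of 17 fell with the block and 1 without it. Phospholipid synthesis, with 2 of 27 genes lower, stayed close to the share over all genes.

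**Figure D3:**
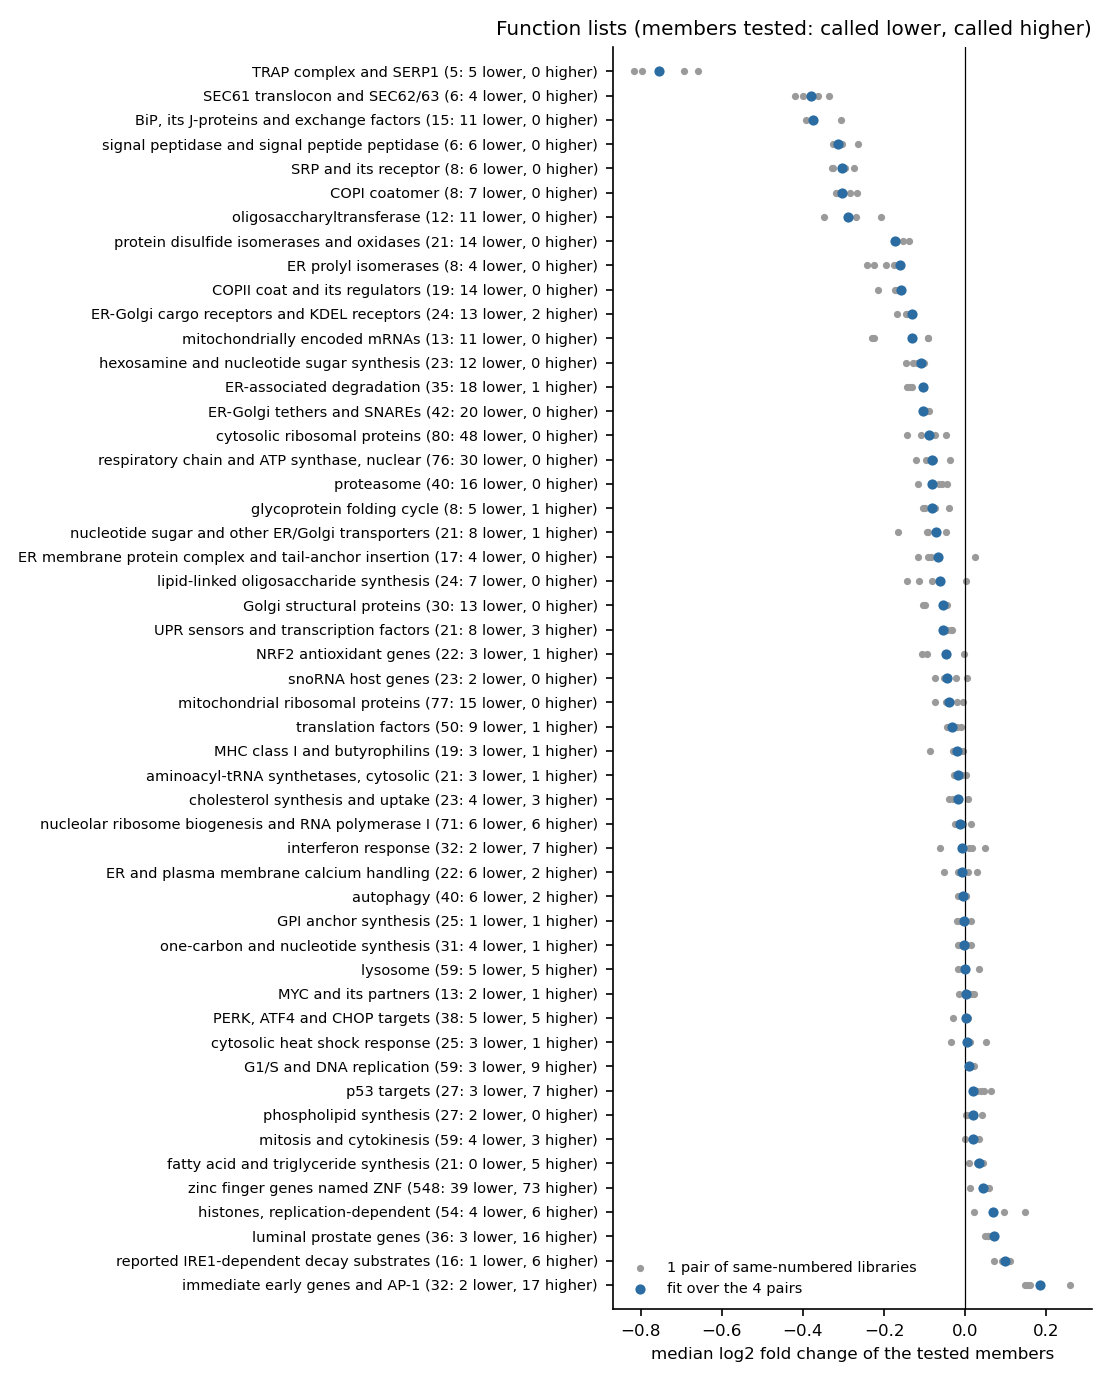
Median log2 fold change of the tested members of each of 51 function lists (x axis), as fitted over the 4 pairs (blue) and for each pair of same-numbered libraries (grey), with the number of members tested, called lower and called higher beside each name. TRAP with SERP1 stands lowest at -0.75, immediate early genes highest at 0.18, and all 4 pairs lie below 0 for the translocon, chaperone and coat lists.

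The arms of the UPR did not move as one. Among 21 sensors and transcription factors, 8 were lower and 3 higher with the block, and 5 and 2 without it. Over all genes tested, 7.05% were lower and 6.0% higher with the block, and 3.11% and 1.36% without it. EIF2AK3, which encodes PERK, was between 83.9 and 86.6 CPM in Vehicle and between 49.4 and 51.1 CPM in MKC8866 (log2 fold change -0.75 ± 0.03, adjusted p = 3.89e-23). CREB3L2, a membrane-bound factor cleaved like ATF6, fell by 0.87, and WFS1, an ER membrane protein linked to calcium handling, by 0.92. ATF6 (0.02), ATF6B (-0.07) and the proteases MBTPS1 (0.01) and MBTPS2 (0.03) were not called. Of 38 genes listed as targets of PERK, ATF4 and CHOP, 5 were lower and 5 higher, with a median of 0.002, and without the block only SLC1A4, an amino acid transporter, was called (0.32). With both libraries numbered 3 left out 3 were higher. ASNS (-0.01), TRIB3 (0.02), CHAC1 (0.03) and PPP1R15A (-0.07) were not called. ATF4 (-0.17) and DDIT3 (-0.09), which encodes CHOP, were called lower and are named after their values were seen. Other stress lists were near the background. The cytosolic heat shock list had 3 of 25 genes lower, led by BAG3 (-0.31), and 1 higher, and the NRF2 list 3 of 22 lower and 1 higher, and in each of them 1 gene was called without the block.

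The largest rise was that of DGAT2, which makes triglycerides in the ER membrane. It was at 7.05, 6.35, 7.54 and 6.56 CPM in Vehicle and at 46.1, 39.1, 43.1 and 42.1 CPM in MKC8866, a 6.197-fold rise (log2 fold change 2.63 ± 0.06, adjusted p = 9.67e-36). DGAT2 and CD59, a complement inhibitor, are among 16 tested genes reported elsewhere as substrates of IRE1-dependent decay. CD59 rose by 63.1%, from 41.1, 45.7, 42.6 and 42.5 CPM to 68.1, 73.8, 71.2 and 67.3 CPM. Of the 16, 6 rose with the block and 3 without it, against 6.0% and 1.36% of all genes, and the median was 0.10. With both libraries numbered 3 left out 3 were called higher, and 4 with those numbered 4 left out. BLOC1S1, the best known of these substrates, rose (0.66 ± 0.17, adjusted p = 0.00457) from 1.03 to 1.499 CPM in Vehicle to 1.59 to 2.66 CPM in MKC8866, and overlaps ITGA7 and 1 other gene in the annotation. TAPBP (0.17), CPEB4 (0.09) and PER1 (0.11) were higher with the block only. PDIA4 fell, and SPARC (0.27), SCARA3 (0.23), COL6A1 (-0.05), HGSNAT (0.03) and PMP22 (-0.18) were among the 9 not called.

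The other large rises came from membrane, Golgi and mitochondrial proteins. BCAM, a laminin-binding adhesion molecule, rose by 89.2% from 23.6, 20.8, 24.5 and 23.1 CPM to 44.9, 41.0, 42.6 and 45.6 CPM. TGOLN2, the marker protein of the trans-Golgi network, rose by 57.3% from 99.1 to 104 CPM in Vehicle to 151 to 168 CPM in MKC8866. SLC25A3, the phosphate carrier of mitochondria, rose by 52.5%, TMEM165, a Golgi ion transporter, by 54.1%, and MECR, an enzyme of mitochondrial fatty acid synthesis, by 49.4%. NOTCH3, a signalling receptor, rose by 46.3%, from 25.7 to 28.3 CPM in Vehicle to 33.9 to 42.3 CPM in MKC8866. ADAMTS15 (0.64) and PTGER4 (0.53) rose from about 5 CPM or less. KLK3, which encodes prostate-specific antigen, was also among the 12.

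Of 36 luminal prostate genes, 16 were higher and 3 lower with the block and the other 17 were not called, against 6.0% and 7.05% of all genes. Without the block 5 were higher and 1 lower, against 1.36% and 3.11% of all genes, and the median was 0.07. KLK3 was at 681, 608, 677 and 649 CPM in Vehicle and at 919, 855, 949 and 884 CPM in MKC8866, a rise of 37.96% (log2 fold change 0.46 ± 0.02, adjusted p = 1.22e-22). The transcription factor MAF rose by 0.40, from 35.2 to 39.7 CPM in Vehicle to 48.7 to 51.7 CPM in MKC8866. KLK2 (0.02), TMPRSS2 (0.07) and SLC45A3 (-0.01) were not called, and KRT18 fell (-0.22), in an annotated overlap with KRT8.

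Immediate early genes formed the list with the highest median, 0.18. Of 32 members 17 were higher and 2 lower with the block, against 6.0% and 7.05% of all genes. Without the block 13 members were higher and 1 lower, against 1.36% and 3.11% of all genes. JUN, a subunit of AP-1, was at 268, 244, 255 and 243 CPM in Vehicle and at 339, 283, 299 and 294 CPM in MKC8866. ZFP36L1, which promotes mRNA decay, rose by 0.32, SRF by 0.25, and the factors KLF6 by 0.27 and KLF10 by 0.19. EGR1 (0.01), FOSB (0.01) and JUNB (0.05) were not called. NR4A2, named here after its value was seen, fell (-0.55). The pair numbered 1 stood above the others in this list, with a median of 0.26, and the median without it was 0.16.

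Growth and metabolic lists moved less. For all genes tested, 7.05% were lower and 6.0% higher with the block, and 3.11% and 1.36% without it. For protein-coding genes with a mean of at least 5 CPM, 11.5% were lower and 11.1% higher with the block. MYC was at 72.6, 61.3, 66.3 and 67.1 CPM in Vehicle and at 78.4, 69.5, 73.4 and 77.0 CPM in MKC8866, with overlapping groups. It was higher in 4 of 4 pairs by 11.7% (adjusted p = 2.85e-04 with the block), and was not called without it (adjusted p = 0.0963). Of MYC and 12 partners, MNT (-0.20) and MLX (-0.10) were lower. In G1/S and DNA replication 3 of 59 genes were lower and 9 higher with the block, and 2 and 3 without it, against 6.0% of all genes higher with the block. With both libraries numbered 1 left out 5 were higher, and with those numbered 2 left out 4 were. The licensing factor CDC6 stood apart, falling from 226, 233, 217 and 224 CPM to 139, 150.5, 142 and 145 CPM (log2 fold change -0.64 ± 0.02, adjusted p = 6.97e-25), and FEN1, a flap endonuclease of replication, fell by 0.27. Mitosis genes had 4 of 59 lower and 3 higher, each called with the block and not without it. Without libraries numbered 1 these were 1 and 2, and without number 2 they were 2 and 1. The p53 target list had 7 of 27 genes higher, led by PLK2 (0.37) and BTG2 (0.21), and 3 lower, against 4 and 1 without the block. In fatty acid and triglyceride synthesis 5 of 21 rose, and apart from DGAT2 these were FASN (0.14), SREBF1 (0.13), ACSL3 (0.08) and ACLY (0.08), none of which was called without the block. With both libraries numbered 2 left out 3 of the 21 were higher. Cholesterol genes were split, with 4 of 23 lower and 3 higher with the block, and 1 called without it, which was lower. Among MHC class I genes and butyrophilins the BTN3A family fell, BTN3A1 by 1.24, BTN3A3 by 0.90 and BTN3A2 by 0.61, and HLA-C (-0.01) and B2M (-0.04) were not called. The 32 interferon response genes had 2 lower and 7 higher with the block, with IRF1 at 0.24, and 1 and 2 without it. With both libraries numbered 2 left out 4 were higher and 1 lower. In autophagy and lysosome lists, WIPI1 (-0.65) and LIPA (-0.33) fell. Of 548 ZNF genes, 73 (13.3%) were higher and 39 (7.12%) lower with the block. These shares were 6.0% and 7.05% over all genes, and 11.1% and 11.5% over protein-coding genes with a mean of at least 5 CPM. Without the block 18 of the 548 were higher and 20 lower.

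Large protein complexes outside the ER showed small falls, most of them called only with the block. Over all genes tested, 7.05% were lower with the block and 3.11% without it. Among protein-coding genes with a mean of at least 5 CPM, 11.5% were lower with the block. Of 80 cytosolic ribosomal protein genes, 48 were lower with the block and 5 without it, with a median of -0.09. RPL31 was at 144, 161, 142 and 141 CPM in Vehicle and at 127, 139.8, 123 and 119.5 CPM in MKC8866. RPS18, at 934, 997, 960.1 and 954 CPM against 834, 949, 869 and 872 CPM, was lower in each pair although the groups overlapped (adjusted p = 1.13e-05 with the block, 0.0718 without). The nuclear genes of the respiratory chain had 30 of 76 lower with the block and 3 without it, the proteasome 16 of 40 and 3, and mitochondrial ribosomal proteins 15 of 77 and 4. With both libraries numbered 4 left out 19 respiratory chain genes were lower, and with those numbered 1 left out 8 mitochondrial ribosomal protein genes were. Of the 13 mitochondrially encoded mRNAs 11 were lower with the block and 5 without it. MT-CO1 went from 6437, 6950, 6650 and 6283 CPM to 6111, 6337, 5421 and 4957 CPM, and was lower by more in pairs 3 and 4 than in pairs 1 and 2. FAU and MRPL49, among the best supported members of their lists, overlap SYVN1 in the annotation.

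Several of these complexes have short transcripts, and calls among short genes leaned to lower. The median exonic length was 2992 bases for ribosomal proteins and 2468.5 for the respiratory chain, against 5269 over the 10517 protein-coding genes with a mean of at least 5 CPM. In the shortest quintile of those genes by exonic length 16.7% were called lower and 5.18% higher, with a median log2 fold change of -0.03. In the longest quintile 6.46% were lower and 16.6% higher, with a median of 0.03. Falls of more than 1.2-fold numbered 82 of 2104 genes in the shortest and 30 of 2104 in the longest quintile. By GC content of the longest transcript, rises ran from 8.22% in the lowest to 14.5% in the highest quintile, and falls from 12.3% to 9.55%. The part of length and GC content in the small changes was not tested. Median lengths of the 20 secretory lists ran from 3447 bases for the oligosaccharyltransferase to 7201 for COPII.

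**Figure D4:**
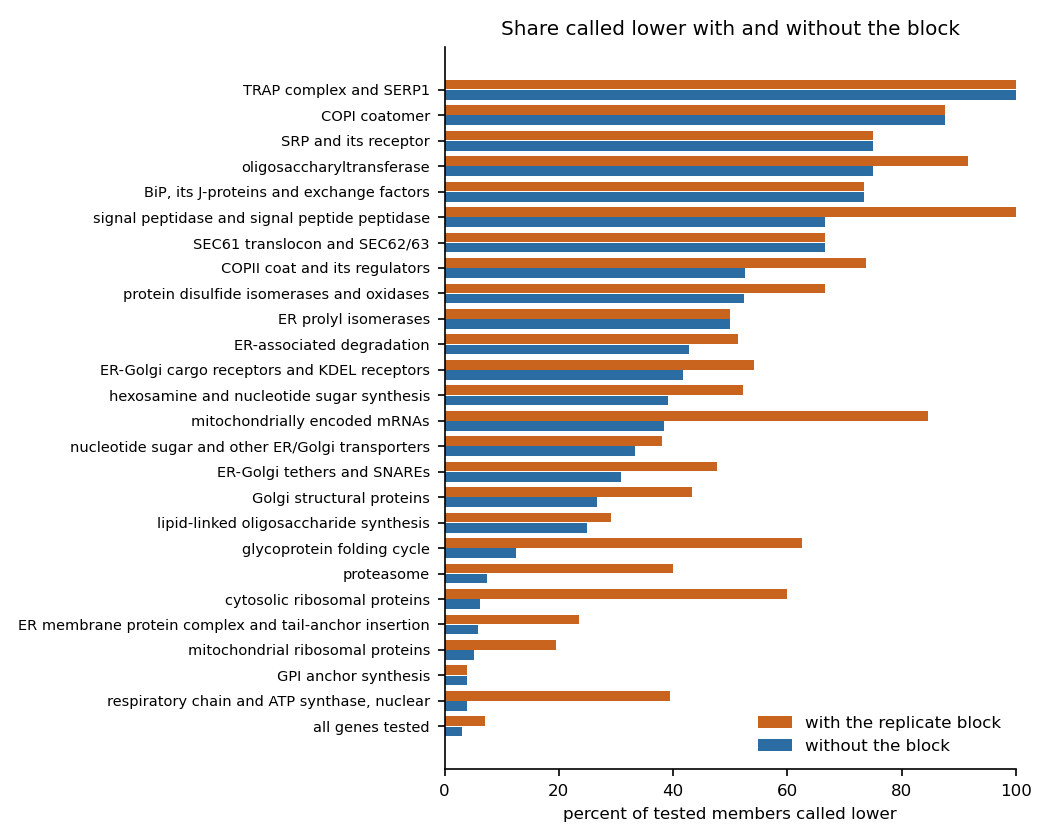
Percent of tested members called lower (x axis) with the replicate block (orange) and without it (blue) in the 20 secretory lists, 5 lists of other complexes and all genes tested. Shares of TRAP, COPI, SRP, SEC61 and BiP partners are equal either way, while those of ribosomal proteins drop from 60.0% to 5 of 80 genes.

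The deviations from the group means of libraries with the same number correlated across the 2 treatments at 0.184, 0.321 and 0.191 for numbers 1, 2 and 4. For number 3 the correlation was 0.0859, and its Vehicle library correlated more with the MKC8866 library numbered 1 (0.125). A test between the replicate numbers, with treatment in the model, called 2824 genes (13.4%). Most of this came from number 2, which was farthest from the others for 1635 of the 2824, and 600 genes were called without it. The share was higher at the ends of the range of GC content. In the highest quintile of GC content 42.8% of genes were called, against 13.1% in the middle and 23% in the lowest. Libraries numbered 2 stood at -0.09 in Vehicle and -0.08 in MKC8866 for the highest GC quintile, on the log2 scale relative to the mean of all 8, and at 0.05 and 0.05 for the lowest. Libraries numbered 1 stood on the opposite side, at 0.05 and 0.07 for the highest quintile. Among the 10 genes with the smallest p and a mean of at least 5 CPM were the ribosomal protein gene RPS9, RPL22L1, 4 ribosomal pseudogenes (RPSAP47, RPL10P16, RPL41P1 and RPS3AP6), the RNA-binding protein TAF15, ARHGDIA and MT-ND6. All 13 mitochondrially encoded mRNAs and 53 of 80 ribosomal protein genes differed between numbers, against 104 of the 357 secretory genes (29.1%). In genes with such differences the block removed a spread that both groups shared, and FASN is an example: at 2240, 1866, 2181 and 2046 CPM in Vehicle and 2396, 2024, 2377 and 2406 CPM in MKC8866 it was higher in 4 of 4 pairs, with overlapping groups. The biological coefficient of variation was 2.68% with the block and 4.97% without it. Leaving out both libraries numbered 2 left 177 of the 357 secretory genes lower, 41 of 80 ribosomal protein genes and 13 of 36 luminal genes higher.

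**Figure D5:**
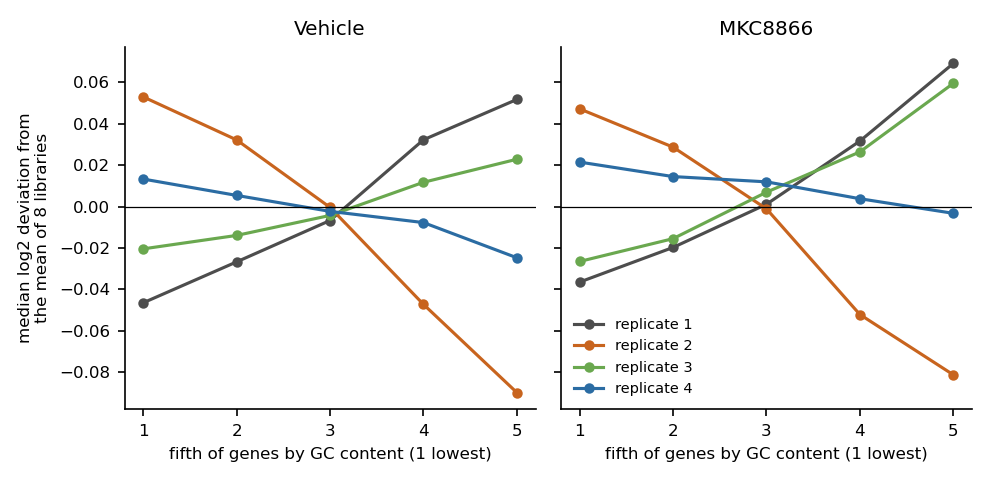
Median log2 deviation of each library from the mean of all 8 libraries (y axis) over protein-coding genes with a mean of at least 5 CPM, split into quintiles of GC content (x axis, 1 lowest). Libraries numbered 2 fall with GC content to -0.09 in Vehicle and -0.08 in MKC8866, and those numbered 1 rise to 0.05 and 0.07.

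The response was set against that to XBP1 knockdown in a fit of all 16 libraries. Inhibitor and knockdown have separate controls and differ in pretreatment and experiment, so the kind of inhibition and the experiment cannot be told apart. Of 20357 genes tested in both, 2641 (13%) responded lower to MKC8866 than to knockdown and 3001 (14.7%) higher. Of the 1484 genes lower with MKC8866, 832 were also called lower after knockdown and 139 were called higher. Of the 1262 higher genes, 470 were called higher and 359 lower. Among all 20357 genes, 21.1% were called lower and 19.6% higher after knockdown. XBP1 itself had the smallest p, with 0.20 under MKC8866 and -2.85 after knockdown (adjusted p = 1.64e-20 for the difference). EDEM1 (-0.65 and -0.70) and DNAJC3 (-0.49 and -0.50) had differences between the responses of 0.05 (adjusted p = 0.547) and 0.01 (adjusted p = 0.867). BHLHA15 (-2.33 and -3.58), SERP1 (-0.75 and -1.50) and SEC24D (-1.05 and -1.89) fell less with the inhibitor, at adjusted p of 1.05e-07, 1.85e-08 and 3.79e-12 for the difference. HSPA5 was lower with MKC8866 and higher after knockdown (-0.15 and 0.30, adjusted p = 2.71e-08). DGAT2 rose with MKC8866 and fell after knockdown (2.63 and -0.28, adjusted p = 2.62e-15), and KLK3 went in opposite directions (0.46 and -0.86, adjusted p = 3.36e-16). CD59 and TGOLN2 also rose with the inhibitor and fell after knockdown, by 0.18 and 0.73, and MYC was at 0.16 and -0.50 (adjusted p = 7.20e-09).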

How the data were processed

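RNA from LNCaP cells was sequenced from stranded TruSeq libraries. The authors aligned the reads to hg38 with STAR 2.5.2a and deposited raw counts of fragments per gene from featureCounts 1.5.0 with Ensembl annotation 85. Per the file header, featureCounts was run with no option for strand, multimapping or overlapping features, so that by its defaults strand was not used and fragments that matched several places or several genes were left out. Reads from overlapping genes are therefore uncertain. Totals ran from 28923919 to 34507788 fragments in the 8 libraries, which limits precision for low genes.

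Counts were tested with edgeR 4.0.16 in R 4.3.3 (quasi-likelihood F test, TMM scaling, two-sided, Benjamini-Hochberg adjustment over all genes tested, threshold 0.05), with the replicate number as a block beside treatment. Genes needed more than 5 counts in 1 or more libraries of each group. CPM values are TMM-scaled, and the prior count was 1. Differences between replicate numbers were tested in the same model, and differences from the knockdown response in a fit of all 16 libraries with an interaction term. The scripts were tested on simulated counts.

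The replicate numbers were checked as pairs over genes with at least 1 CPM. Correlations of deviations from the group means were 0.0859 to 0.321 for libraries with the same number (mean 0.195) and -0.215 to 0.125 for others (mean -0.0651). Such deviations cancel within a group, so the mean for others largely follows from the mean for the same number and is not separate evidence. Of the numbers, 3 of 4 passed the value of 0.1 asked of each. The criterion for pairing was therefore not met, and the block was kept because the comparison is defined by it.

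Genes were named if they were XBP1, ERN1, SERP1, EDEM1, DNAJC3, HSPA5 or MYC, among the 12 largest changes in each direction (mean of at least 5 CPM, same sign in 4 of 4 pairs), among up to 5 called members with the smallest p in each of 51 function lists, among 10 genes between replicate numbers or 5 per direction in the interaction. Other members of a list that were not called are named with their values, as are SDF2L1, SEL1L, SEC24A, SEC24C, COPZ1, TMED8, ERGIC1, RNF103, ATF4, DDIT3, NR4A2, CPEB4 and PER1, which were chosen after their values were seen. Some genes named by these rules are not reported here. Members and lists were chosen with earlier results of these data known. Alternatives covered the block, the scaling (RLE), the filter, the threshold, the libraries in the fit, DESeq2 1.42.0, limma 3.58.1 (voom with a random replicate effect) and each replicate number left out. Leaving out single libraries without the block, and list counts without each number, were added after the data were seen. Promoter windows came from RefSeq (GRCh38.p14), and gene overlaps, lengths and GC content from GENCODE.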

Additional observations from a re-analysis of the deposited data

Results flagged for a closer look

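C14orf28 in MKC8866 replicate 2 stood apart from the other libraries of its group, at 4.90 CPM against 4.13 to 4.24 CPM. Its gap was 0.859 of the range of the group, above the critical value of Dixon's test for 4 samples. Chance gives such a gap in about 1 group of 20 tested, and this was the only 1 among 62 groups tested.

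The response to MKC8866 differed from that to XBP1 knockdown, by a test of the difference itself, for 2641 genes with a lower and 3001 with a higher response to MKC8866. Among genes that rose or fell with MKC8866, those with the smallest p were taken in each direction. On the log2 scale the difference (MKC8866 minus knockdown) was 3.05 for XBP1, 2.34 for PPT1, a lysosomal thioesterase, 1.98 for ZDHHC9, a palmitoyltransferase, 1.59 for PTBP3, a splicing regulator, and 1.32 for KLK3. It was -1.40 for GNG5, a G protein subunit, -1.38 for SMIM15, 1.36 for MCUR1, a regulator of mitochondrial calcium uptake, 1.203 for RNF4, a SUMO-targeted ubiquitin ligase, and 1.10 for PRNP, the prion protein. The inhibitor and knockdown experiments have separate controls, so treatment and experiment cannot be told apart here.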

How the results depend on the processing

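Of the 1484 lower and 1262 higher genes, 654 and 287 were called without the replicate block, 863 and 534 in a fit of all 16 libraries, 897 and 609 by DESeq2 with the block, and 523 and 182 at more than 1.2-fold. Higher genes numbered 765 by voom and 717 at an adjusted p under 0.01. Leaving out each replicate number gave 1252 to 1291 lower and 850 to 900 higher genes. Genes that differed between replicate numbers went from 2824 to 1504 at an adjusted p under 0.01 and ranged from 600 (without replicate 2) to 2788 when a number was left out. Genes with a lower response to MKC8866 than to knockdown went from 2641 to 1670 at an adjusted p under 0.01. The causes were not tested. Without the block, leaving out single libraries gave 527 to 833 lower and 180 to 484 higher genes, the highest without MKC8866 replicate 2 and the lowest higher count without MKC8866 replicate 1. The higher count also fell over 1.5-fold without MKC8866 replicate 3 (184), MKC8866 replicate 4 (191) or Vehicle replicate 3 (188).

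Of 267 named genes, 76 were no longer called without the block, 49 with all 16 libraries, 29 by voom, 17 by DESeq2 and 1 with RLE scaling, and none of these reversed. RLE scaling moved the median of all genes by -0.002. Same-numbered libraries correlated best with each other for 3 of 4 numbers, as a hint from the data and not the design.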
